A study of Homo sapiens with 15 samples.

Results

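Membrane transporters of 5 solute carrier families were examined in 9 lymphoid cell lines: SLC1A (glutamate and neutral amino acids), SLC2A (hexoses), SLC7A (cationic and large neutral amino acids, and cystine), SLC16A (monocarboxylates such as lactate and pyruvate) and SLC38A (glutamine and other small neutral amino acids). Members were taken by gene symbol, not by measured value, leaving out 7 antisense, divergent and pseudogene symbols. The rule gave 52 of the 19735 genes measured. Of these, 50 encode transporters, with 7 in SLC1A, 12 in SLC2A, 13 in SLC7A, 7 in SLC16A and 11 in SLC38A, read by 120 probe sets. The other members, SLC2A4RG and SLC7A6OS, carry family names but encode a transcription factor and an unrelated protein, and were counted apart. Where a gene had several probe sets, the one brightest on average across the 15 arrays stood for it. SLC16A1 and SLC16A3 were not analysed here.

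RNA from cultured cell lines was hybridised to Affymetrix U133 Plus 2.0 arrays. The Hodgkin lines, all labelled as classical Hodgkin lymphoma, were HDLM2, KM-H2, L1236, L428, L540 and L540Cy. The non-Hodgkin lines were Namalwa, from a Burkitt lymphoma, SU-DHL-4, from a B cell non-Hodgkin lymphoma, and Reh, from a B cell precursor acute lymphoblastic leukaemia. No line was treated, and no normal lymphocyte sample was compared. Biological duplicates were made of 6 lines, and L540, L540Cy and SU-DHL-4 had 1 array each, giving 10 Hodgkin and 5 non-Hodgkin arrays. Each line is a single established culture, which limits it as a model of its tumour. As background, HDLM2 and L540 are known as T cell derived and the other Hodgkin lines as B cell derived, and L540Cy is a subline of L540. L540 and L540Cy were therefore averaged as 1 line of origin in comparisons of disease classes, which set 5 Hodgkin lines against 3 non-Hodgkin lines.

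Cells cannot take up glucose, lactate or charged amino acids without carriers. Most SLC2A proteins carry hexoses down their gradient, and most SLC16A proteins studied carry monocarboxylates or aromatic amino acids. SLC1A and SLC38A proteins use the sodium gradient to concentrate amino acids. Several SLC7A proteins are light chains that reach the cell surface only when bound to a heavy chain encoded by SLC3A2 or SLC3A1, and exchange 1 amino acid for another. Activated and malignant lymphocytes are known for high uptake of glucose and glutamine, and Hodgkin lymphoma for its uptake of labelled glucose in imaging.

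The promoters of 3 transporters are shown here, chosen after their signals were seen because they hold a searched motif and their genes differed among lines. They are RefSeq sequences of build GRCh38.p14, running from 250 bases before to 50 bases after the gene's start, 5′ to 3′ on the gene's strand. RefSeq promoters were given for 40 of the 50 transporter genes, 60 promoters in all. SLC2A13 and SLC16A9 were picked for their highest signal in KM-H2, and SLC1A4 for a signal highest in L428 and lowest in L540. In the SLC2A13 promoter (chr12:40106032-40106331, minus strand) and the SLC16A9 promoter (chr10:59710030-59710329, minus strand), the capitals mark the E-box CACGTG together with an overlapping match on the opposite strand to ACGTGC, the core of the hypoxia element. In the SLC1A4 promoter (chr2:64989149-64989448, plus strand), they mark TTGCATCA, a match on the opposite strand to TGATGNAA, the composite element bound by C/EBP and ATF proteins.
SLC2A13: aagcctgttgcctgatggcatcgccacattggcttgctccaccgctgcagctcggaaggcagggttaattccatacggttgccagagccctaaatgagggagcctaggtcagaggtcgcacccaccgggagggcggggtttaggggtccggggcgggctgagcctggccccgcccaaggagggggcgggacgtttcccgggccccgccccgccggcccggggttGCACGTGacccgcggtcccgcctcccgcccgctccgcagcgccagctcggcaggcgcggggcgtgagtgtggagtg
SLC16A9: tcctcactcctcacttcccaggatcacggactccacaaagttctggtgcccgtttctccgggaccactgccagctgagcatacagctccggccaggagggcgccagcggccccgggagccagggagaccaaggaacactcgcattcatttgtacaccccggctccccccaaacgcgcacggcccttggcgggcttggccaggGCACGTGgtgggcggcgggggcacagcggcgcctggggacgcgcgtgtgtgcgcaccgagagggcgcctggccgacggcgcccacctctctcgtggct
SLC1A4: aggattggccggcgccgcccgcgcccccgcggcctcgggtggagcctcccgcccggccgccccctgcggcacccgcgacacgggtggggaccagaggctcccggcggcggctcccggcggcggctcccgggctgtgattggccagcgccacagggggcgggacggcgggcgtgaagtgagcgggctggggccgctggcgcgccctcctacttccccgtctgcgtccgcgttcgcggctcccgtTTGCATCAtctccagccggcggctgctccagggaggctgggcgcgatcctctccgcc
The E-box match began 25 bases before the start of SLC2A13 and 47 bases before that of SLC16A9, and the match in SLC1A4 began 7 bases before its start. Searched on both strands, CACGTG was in 9 of the 60 transporter promoters and in 7.26% of all 35116 promoters of the same length. The 9 genes were SLC1A5, SLC1A7, SLC2A13, SLC7A5, SLC7A7, SLC7A8, SLC16A9, SLC38A5 and SLC38A7. Of these SLC7A5 and SLC7A7 were lowest in KM-H2, with line means of 10.54 and 5.83. The next lowest lines were close, at 10.64 in L1236 and 5.88 in L540Cy. SLC1A5, SLC1A7, SLC7A8, SLC38A5 and SLC38A7 had neither their highest nor their lowest line mean in KM-H2. ACGTGC was in 9 of the 60, in 8 genes, and in 6.89% of all promoters. TGATGNAA was in 6 of the 60, those of SLC1A3, SLC1A4, SLC1A5, SLC2A5, SLC38A1 and SLC7A1, and in 3.62% of all promoters. These matches are descriptions of the letters and not measured binding sites.

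Signals are RMA values on the log2 scale, on which each unit is a doubling. A level is comparable within a gene across arrays and not between genes, whose probes differ. Array medians lay between 5.499 and 5.56. The upper quartile was 7.30 on replicate 2 of Namalwa and 7.53 to 7.71 on the other arrays. The markers of Hodgkin and Reed-Sternberg cells (TNFRSF8, FUT4 and CCL17) averaged 9.01 to 12.51 in the Hodgkin lines and 5.60 to 6.38 in the non-Hodgkin lines, but CCL17 was 6.20 in L540, within the 5.85 to 6.62 of the non-Hodgkin arrays. Of 5 B cell markers, the 4 measured averaged 5.32 to 6.65 in the Hodgkin lines and 10.69 to 11.78 in the non-Hodgkin lines. Of these PAX5 did not separate the classes, with a mean of 10.81 in L1236 and 10.78 in SU-DHL-4. T cell markers were low in both classes, at 5.03 to 6.45 in the Hodgkin lines and 5.26 to 5.58 in the non-Hodgkin lines, although HDLM2 carried CD2 at 11.30 and 10.19. CD3D was 5.79 and 5.40 in HDLM2 and 5.94 in both L540 and L540Cy, while KM-H2 read 8.75 and 8.44, so its signal did not mark the lines known as T cell derived. Precursor B cell markers averaged 4.13 to 4.31 in the Hodgkin lines and 4.59 to 10.51 in the non-Hodgkin lines. VPREB1 and IGLL1, which encode the surrogate light chain of precursor B cells and are not typical of a Burkitt lymphoma line, were high in Namalwa. VPREB1 read 10.005 and 10.11 in Namalwa, against 5.46 in SU-DHL-4 and 4.18 and 3.65 in the precursor line Reh. IGLL1 read 11.60 and 12.84 in Namalwa, against 4.74 in SU-DHL-4 and 12.38 and 13.12 in Reh. Namalwa was kept under its label, the part of these markers in its transporter values was not tested, and the main class differences are also given without it. The 3 myeloid markers measured averaged 5.09 to 6.73 in the Hodgkin lines and 5.08 to 5.28 in the non-Hodgkin lines, with CD14 at 7.59 and 8.32 in KM-H2. Fibroblast markers averaged 6.11 to 6.42 in the Hodgkin lines and 6.61 to 7.66 in the non-Hodgkin lines, with DCN at 9.92 in SU-DHL-4, and the 1 erythroid marker measured lay between 6.03 and 6.51 in the Hodgkin lines and between 5.92 and 6.13 in the non-Hodgkin lines.

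Replicate 1 of Reh stood apart from replicate 2. Over 22 genes at least 3 log2 units higher in SU-DHL-4 than on every array other than Reh replicate 1, the median gap of Reh replicate 1 above Reh replicate 2 was 3.995. MS4A1, a mature B cell antigen, read 11.47 in Reh replicate 1 and 4.12 in Reh replicate 2, against 12.48 in SU-DHL-4. Of the 50 transporters, 10 differed by more than 1 log2 unit between the Reh arrays, and each of these read closer to SU-DHL-4 in replicate 1 than in replicate 2. SLC1A1 read 8.95 in Reh replicate 1 and 3.35 in Reh replicate 2, against 10.83 in SU-DHL-4. SLC16A7 read 7.92 and 3.60 in the same Reh arrays, against 9.69 in SU-DHL-4. The other duplicated lines had 0 to 6 such transporters, 6 of them in Namalwa. Several results that rest on Reh are therefore given with and without its replicate 1, and the others with both arrays. The part of replicate 1 in them was otherwise not tested.

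The first comparison asked which transporters separated Hodgkin from non-Hodgkin lines. Of the 50, SLC7A7 alone passed the test, and the largest differences, in SLC2A3 and SLC2A13, did not. Across all genes, 0.760% were called higher in the Hodgkin lines and 0.598% lower, at an adjusted p under 0.05 from limma over all genes. Of the transporters, 0 were called higher, 1 was called lower and 49 were not called. Without adjustment, 4 were higher and 3 lower at p under 0.05, together 14% of the transporters, against 7.05% of all genes higher, 7.18% lower and 14.2% together. The median difference of the 50 was -0.04, against -0.02 for all genes, with 21 positive and 29 negative. By family the median was -0.12 for SLC1A, 0.10 for SLC2A, -0.07 for SLC7A, -0.28 for SLC16A and 0.05 for SLC38A. All 5 Hodgkin lines lay on 1 side of the 3 non-Hodgkin lines for 6 transporters, 12% of the 50, against 10.7% of all genes. These were SLC1A2, SLC2A3, SLC2A13, SLC7A7, SLC16A9 and SLC38A10. SLC2A4RG and SLC7A6OS differed by 0.14 and 0.10 and were not called. The p-values measure the spread among lines. An array reads a whole culture, so fewer cells with a transcript and less of it per cell cannot be told apart.

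**Figure D1:**
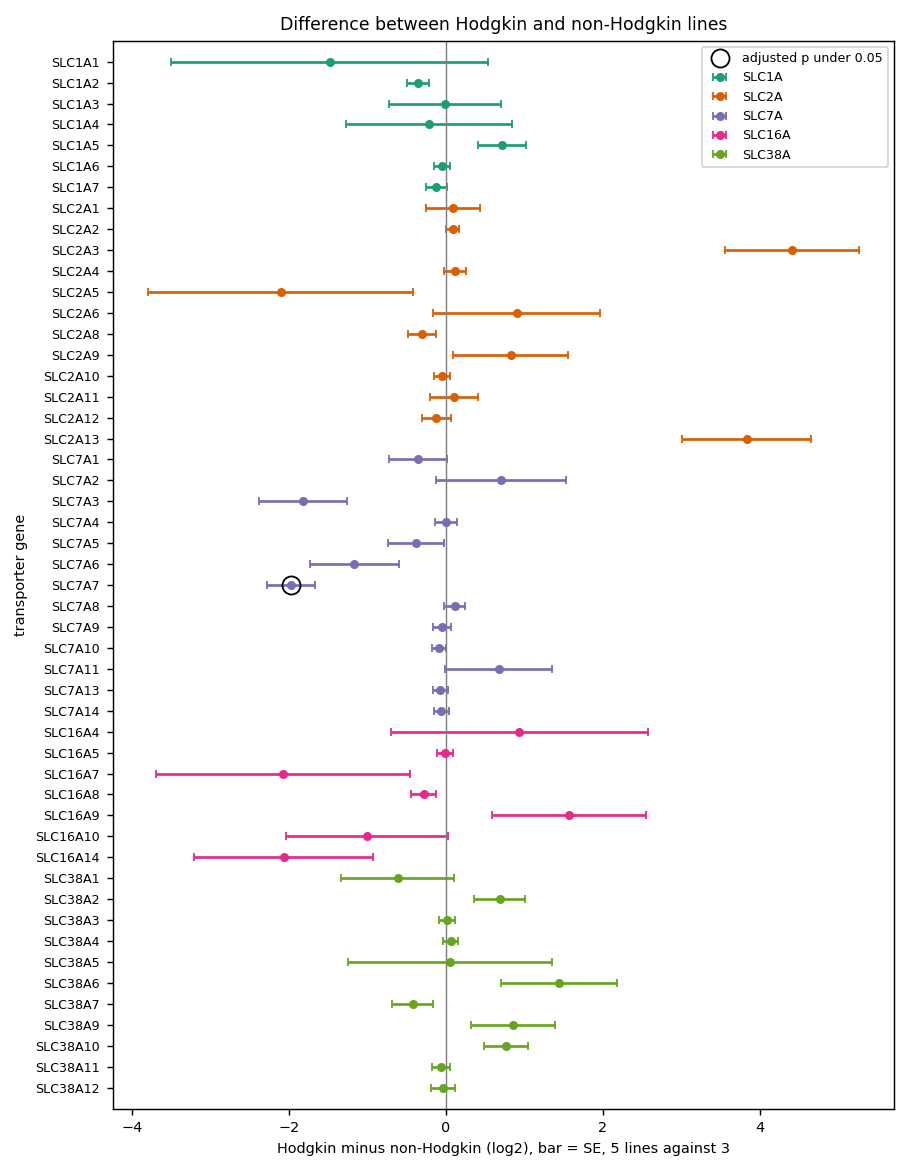
Hodgkin minus non-Hodgkin difference in log2 signal (horizontal axis) for each of the 50 transporter genes (rows, coloured by family), with its standard error over 5 Hodgkin and 3 non-Hodgkin lines. SLC7A7, ringed, was the only gene with an adjusted p under 0.05, at -1.98, while SLC2A3 at 4.41 and SLC2A13 at 3.84 were the largest positive differences.

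SLC7A7, the light chain of the exporter of cationic amino acids known as y+LAT1, was the transporter that fell. Over the 10 Hodgkin arrays its signal ran from 5.59 through a median of 6.03 to 6.33. In the non-Hodgkin lines it read 8.43 and 7.07 in Namalwa, 8.85 in SU-DHL-4, and 8.36 and 6.43 in Reh. The arrays of the classes did not overlap, and Reh replicate 2 was the non-Hodgkin array nearest to the Hodgkin arrays. The line means were 6.02 ± 0.15 in Hodgkin lines (SD, n = 5) and 7.999 ± 0.76 in non-Hodgkin lines (SD, n = 3). limma gave a difference of -1.98 ± 0.31 (SE) with an adjusted p of 0.0310. Without Reh replicate 1 the difference was -1.66, with an adjusted p of 0.194 in limma. It was called under 21 of 31 alternative settings, with adjusted p between 0.00408 and 0.194. Without Namalwa the difference was -2.10, with an adjusted p of 0.0812 in limma. Leaving out any of 6 of the 8 lines of origin ended the call, as did leaving out Namalwa replicate 1, where the difference was -1.75, or both T cell derived lines, where it was -1.94.

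The SLC2A family members SLC2A3 and SLC2A13 had the largest differences of all 50 transporters and were not called. SLC2A3 encodes GLUT3, a high affinity glucose transporter. Its signal over the 10 Hodgkin arrays ran from 8.85 through a median of 9.58 to 12.54. It read 5.29 and 5.28 in Namalwa, 4.19 in SU-DHL-4, and 6.81 and 7.65 in Reh. Every Hodgkin array was above every non-Hodgkin array, with L540Cy at the top and SU-DHL-4 at the bottom. The difference was 4.41 ± 0.85 (SE), with an adjusted p of 0.0628 in limma. The 3 probe sets of SLC2A3 were all higher in the Hodgkin lines, by 4.41, 3.39 and 2.59. SLC2A3 has a near-identical copy, SLC2A14, and the arrays cannot be taken to separate them. Adjusted p ran from 0.00220 to 0.184 over 31 alternatives, 6 of which called it, and the difference was 4.27 without Reh replicate 1 and 4.27 without Namalwa.

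SLC2A13 encodes HMIT, a proton-coupled carrier of myo-inositol. Over the Hodgkin arrays it ran from 6.54 through a median of 7.27 to 10.42. It read 4.88 and 4.10 in Namalwa, 4.29 in SU-DHL-4, and 3.74 and 3.75 in Reh. The classes did not overlap, and KM-H2 and L428 were the highest Hodgkin lines. The difference was 3.84 ± 0.82 (SE), with an adjusted p of 0.0820 in limma and a range of 0.00157 to 0.238 over 31 alternatives, 4 of which called it. The difference was 3.83 without Reh replicate 1 and 3.99 without Namalwa. Its 5 probe sets did not move alike: the other 4 differed by 1.80, 0.96, 0.67 and -0.02, and the mean of all of them gave the smallest difference, 1.45.

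SLC7A3, a carrier of cationic amino acids, had the next largest difference in the SLC7A family. It ran from 3.97 through 4.62 to 4.99 over the Hodgkin arrays. It read 7.35 and 7.40 in Namalwa, 4.72 in SU-DHL-4, and 6.34 and 7.44 in Reh. Namalwa and Reh were above every Hodgkin array, and SU-DHL-4 lay among the Hodgkin arrays. Its difference of -1.82 ± 0.56 (SE) had an adjusted p of 0.208 in limma, and was -2.63, with an adjusted p of 0.00752, without SU-DHL-4. It was -2.01 without Reh replicate 1 and -1.30 without Namalwa.

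The other transporters with a difference past 1.5 log2 units varied as much within a class as between classes. SLC2A5, the fructose carrier GLUT5, differed by -2.11 ± 1.69 (SE). SLC16A7, the pyruvate carrier MCT2, differed by -2.07 ± 1.62, SLC16A14 by -2.07 ± 1.14 and SLC16A9 by 1.57 ± 0.98. Adjusted p was 0.616, 0.606, 0.471 and 0.529 in that order in limma, so none was called. Without Reh replicate 1 the SLC16A7 difference was -1.35. SLC2A5 and SLC16A14 also differed by more than 1 log2 unit between the Reh arrays, and their differences are given with both. SLC38A6 differed by 1.45 ± 0.74, with an adjusted p of 0.434 in limma, and by 0.72 without Namalwa. SLC1A2 and SLC38A10, whose line means did not overlap between classes, differed by only -0.36 ± 0.14 and 0.77 ± 0.28, and were not called, at adjusted p of 0.293 and 0.271 in limma. The 6 further probe sets of SLC38A10 differed by -0.25 to -0.04, so the positive difference rested on 1 probe set. The 5 further probe sets of SLC1A2 differed by -0.21 to 0.44, so its direction turned with the probe set.

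The broadly used carriers of proliferating cells were not called between classes. SLC1A5, the glutamine carrier ASCT2, averaged 10.32 ± 0.53 in Hodgkin lines (SD, n = 5) and 9.61 ± 0.19 in non-Hodgkin lines (SD, n = 3). SLC7A5, the large neutral amino acid carrier LAT1, averaged 11.19 ± 0.63 in Hodgkin lines and 11.57 ± 0.25 in non-Hodgkin lines. SLC7A1, which carries arginine and lysine, averaged 11.65 ± 0.66 in Hodgkin lines and 12.01 ± 0.19 in non-Hodgkin lines. SLC38A2, the amino acid responsive carrier SNAT2, averaged 12.09 ± 0.45 in Hodgkin lines and 11.40 ± 0.53 in non-Hodgkin lines. SLC2A1, the main glucose carrier GLUT1, averaged 7.95 ± 0.51 in Hodgkin lines and 7.87 ± 0.53 in non-Hodgkin lines. SLC7A11, the cystine and glutamate exchanger xCT, averaged 9.26 ± 0.78 in Hodgkin lines and 8.59 ± 1.39 in non-Hodgkin lines. Unlike SLC2A3, SLC2A1 differed by only 0.09 ± 0.35 (SE), with an adjusted p of 0.929 in limma, and its highest line was also L540Cy.

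The next comparison asked which transporters differed among the 9 lines by more than the duplicates of a line differ. In a limma F test over 15 arrays, 31 transporters (62%) were called, against 52.0% of all genes. They comprised 4 of SLC1A, 8 of SLC2A, 7 of SLC7A, 5 of SLC16A and 7 of SLC38A. The 19 not called had line means within 0.28 to 0.80 log2 units of each other, and 11 transporters were below 6 on every array. The range of line means was over 3 log2 units for 19 transporters (38%) and for 14.4% of all genes. It had a median of 1.71 over the transporters and 1.09 over all genes. Its median by family was 1.84 for SLC1A, 1.38 for SLC2A, 1.56 for SLC7A, 4.63 for SLC16A and 1.70 for SLC38A. In SLC16A 5 of the 7 members passed 3 log2 units, namely SLC16A4, SLC16A7, SLC16A9, SLC16A10 and SLC16A14. The spread of the 6 duplicated lines was applied to the 3 lines that had a single array.

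**Figure D2:**
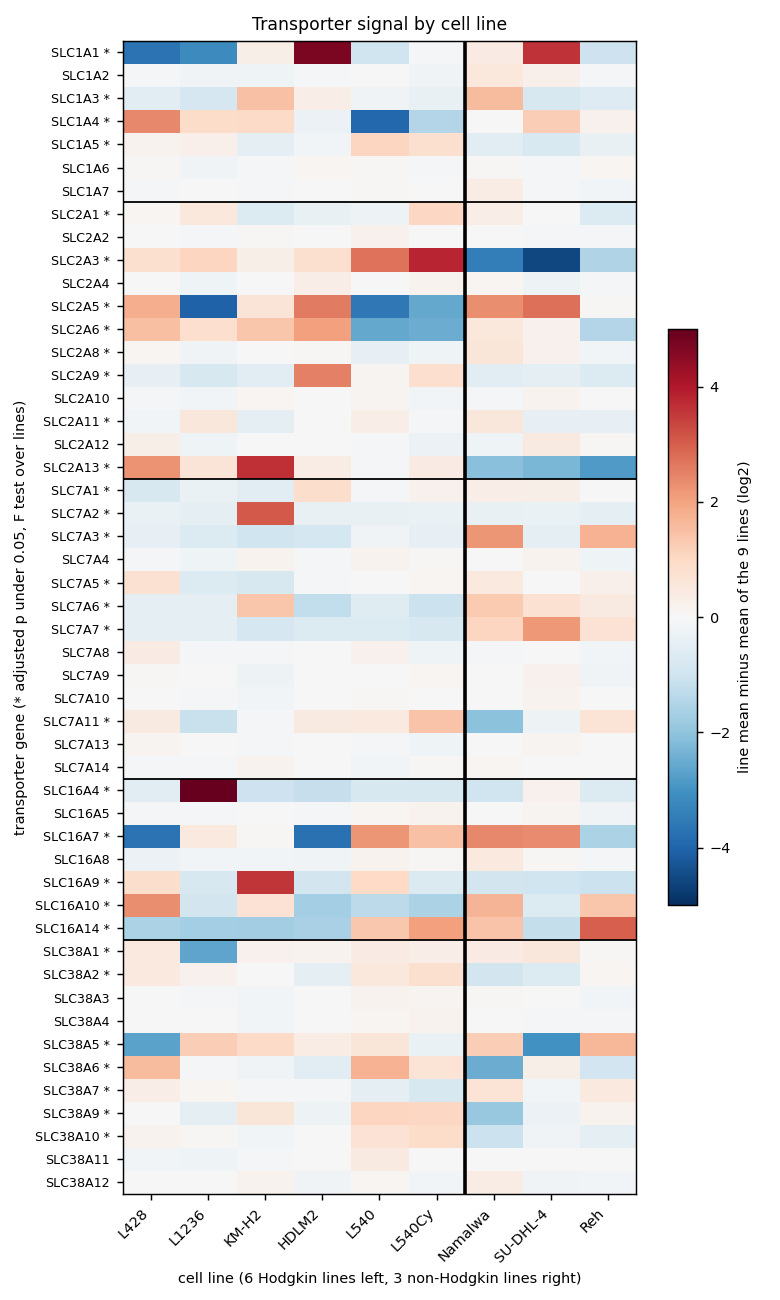
Line mean minus the mean of the 9 lines, in log2 units (colour), for the 50 transporter genes (rows, by family) in 6 Hodgkin lines (left) and 3 non-Hodgkin lines (right); an asterisk marks an adjusted p under 0.05 in the F test. Some dark cells stand alone in single lines, such as SLC16A4 in L1236 and SLC16A9 in KM-H2. Others are shared by lines, such as SLC16A7 in L428 and HDLM2. SLC2A3 and SLC2A13 are blue in all 3 non-Hodgkin lines.

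Each line of origin was then set against the mean of the other 7. Called transporters numbered 18 in L428 (36%), against 23.7% of all genes, and 18 in L1236 (36%), against 25.0%. They numbered 16 in KM-H2 (32%), against 28.1%, 14 in HDLM2 (28%), against 27.1%, and 17 in L540 (34%), against 25.6%. Among the non-Hodgkin lines they numbered 23 in Namalwa (46%), against 27.9%, 10 in SU-DHL-4 (20%), against 17.8%, and 14 in Reh (28%), against 21.8%. In all, 33 transporters (66%) were called in at least 1 contrast, against 59.8% of all genes. Of those in Namalwa 14 were higher and 9 lower, while 12 of those in L1236 and 10 of those in Reh were lower. The Namalwa arrays differed by more than 1 log2 unit for 6 transporters, and Namalwa replicate 2 had the lowest upper quartile of all arrays. The Namalwa count is not given here without that replicate. Without Reh replicate 1 the counts were 20, 21, 17, 16 and 19 in L428, L1236, KM-H2, HDLM2 and L540, and 24, 14 and 13 in Namalwa, SU-DHL-4 and Reh. These contrasts share arrays, so a line that is high in a gene lowers the others.

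Among the SLC16A carriers, SLC16A4, SLC16A9 and SLC16A14 each had high signal in 1 or a few lines. SLC16A4, the carrier MCT5, whose substrate is not settled, read 10.31 and 11.15 in L1236. Over the other 13 arrays, Hodgkin and non-Hodgkin, its line means lay between 3.75 and 5.11. L1236 exceeded the mean of the other lines by 6.55 ± 0.20 (SE), the largest single-line difference among the transporters named here, with an adjusted p of 1.70e-08 in limma.

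SLC16A9, known as a carnitine carrier, read 8.73 and 8.42 in KM-H2. It read 6.12 and 5.68 in L428, 6.01 in L540, 4.31 in L540Cy and 4.04 to 4.20 in L1236 and HDLM2. In the non-Hodgkin lines it read 4.22 and 3.97 in Namalwa, 4.03 in SU-DHL-4, and 4.07 and 3.82 in Reh. Both KM-H2 arrays were above every other array, and L540 read 1.70 above its subline. The KM-H2 contrast was 4.09 ± 0.15 (SE), with an adjusted p of 5.25e-08 in limma.

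SLC16A14, an orphan member known as MCT14, read 6.76 in L540 and 7.47 in L540Cy, and at most 3.93 in the other 8 Hodgkin arrays. It read 7.62 and 6.03 in Namalwa, 4.23 in SU-DHL-4, and 7.68 and 9.11 in Reh. High signal was therefore found in lines of both classes. The contrasts were 3.66 ± 0.40 (SE) for Reh and 2.20 ± 0.40 for L540, with adjusted p of 0.000110 and 0.00245 in limma. The Reh contrast was 4.37 without Reh replicate 1. KM-H2 was the lowest line for SLC16A14, with a contrast of -1.76 that was lost without KM-H2 replicate 1. Its line mean of 3.65 was close to 3.72 in L1236, 3.78 in HDLM2 and 3.82 in L428. The contrasts of L1236 and L428 were -1.69 and -1.56.

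SLC16A7 was low in L428, at 3.49 and 3.80, and in HDLM2, at 3.64 and 3.54. It read 7.51 and 8.10 in L1236, 7.27 and 7.49 in KM-H2, 9.53 in L540 and 8.78 in L540Cy. In the non-Hodgkin lines it read 10.19 and 9.25 in Namalwa and 9.69 in SU-DHL-4, with the divided Reh arrays given above. Namalwa, SU-DHL-4 and L540 were close at the top of the order, and L428 and HDLM2 close at the bottom. The contrasts were -3.999 ± 0.78 (SE) for HDLM2, -3.94 ± 0.78 for L428 and 3.003 ± 0.78 for Namalwa, with adjusted p of 0.00345, 0.00458 and 0.0169 in limma. The L428 call was lost without either L428 array, and the Namalwa call without either Namalwa array. The mean of all 5 probe sets gave -2.10 for HDLM2 and -2.36 for L428. Without Reh replicate 1 the contrasts were -3.69 for HDLM2, -3.63 for L428 and 3.31 for Namalwa, and Reh itself was called lower, at -3.68.

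By its brightest probe set, SLC16A10, the aromatic amino acid carrier TAT1, was highest in L428, at 8.62 and 8.56. It was lowest in HDLM2, at 4.66 and 4.52. It read 5.65 and 5.09 in L1236, 6.92 and 7.08 in KM-H2, and 4.97 and 4.70 in L540 and L540Cy. The non-Hodgkin values were 8.29 and 7.69 in Namalwa, 5.60 in SU-DHL-4, and 7.07 and 8.26 in Reh. L428 exceeded the other lines by 2.44 ± 0.27 (SE) and HDLM2 fell below them by -2.13 ± 0.27, with adjusted p of 0.000126 and 0.000233 in limma. Over the mean of all probe sets these were 1.14 and -1.07. The highest and lowest lines turned with the probe set. The other probe sets of SLC16A10 were highest in Reh, at 5.31 and 5.19, against 4.68 and 4.31 in L428. The first of them was lowest in SU-DHL-4 and the second in L1236.

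**Figure D3:**
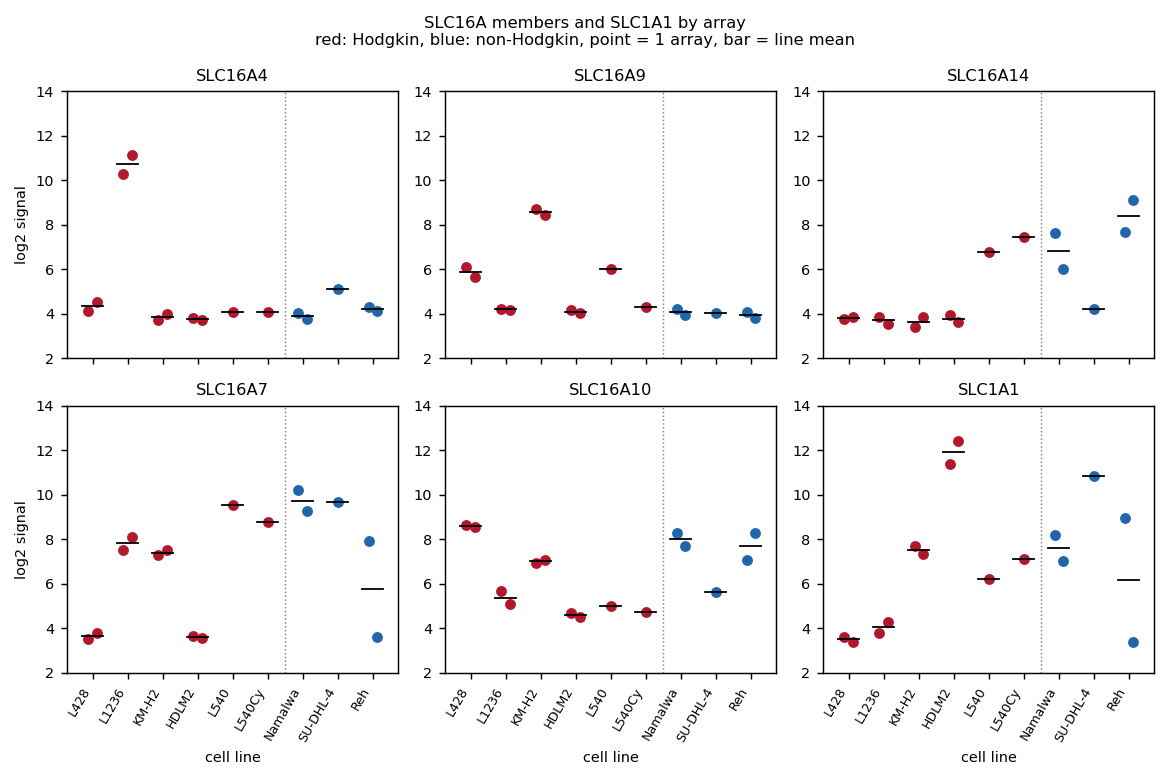
Log2 signal on each array (points) and line mean (bars) of 5 SLC16A genes and SLC1A1 in Hodgkin lines (red, left) and non-Hodgkin lines (blue, right). L1236 is alone near 10.73 for SLC16A4, KM-H2 is highest for SLC16A9, and the Reh points lie far apart for SLC16A7 and SLC1A1.

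The SLC2A carriers showed a different order of lines for each gene. SLC2A3 was highest in L540, at 11.43, and L540Cy, at 12.54. The remaining Hodgkin lines were close together, with means of 9.55 in L428, 9.81 in L1236, 9.04 in KM-H2 and 9.52 in HDLM2. The L540 contrast was 4.18 ± 0.34 (SE), and the contrasts of SU-DHL-4 and Namalwa were -4.72 ± 0.47 and -3.47 ± 0.34. Adjusted p was 1.53e-05, 0.000112 and 5.79e-05 in that order in limma. The L1236 contrast, 1.70 ± 0.34, was lost without L1236 replicate 2.

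SLC2A5 was lowest in L1236, at 4.61 and 4.60, and low in L540 and L540Cy, at 5.05 and 6.08. It read 10.56 and 10.35 in L428, 9.07 and 9.45 in KM-H2, and 11.53 and 10.94 in HDLM2. The non-Hodgkin values were 11.50 and 10.37 in Namalwa, 11.37 in SU-DHL-4, and 10.22 and 7.17 in Reh. The L1236 contrast was -5.04 ± 0.59 (SE) and that of L540 was -3.94 ± 0.59, with adjusted p of 0.000165 and 0.000746 in limma. Over the mean of 4 probe sets they were -2.41 and -1.99. The SU-DHL-4 contrast, 2.69 ± 0.80 with an adjusted p of 0.0439 in limma, was called under 7 of 18 alternatives, and was 2.91 without Reh replicate 1.

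SLC2A6, the hexose carrier GLUT6, was likewise low in L540 and L540Cy, at 5.49 and 5.58. The other Hodgkin arrays lay between 8.73 and 10.30. Non-Hodgkin arrays read 8.79 and 8.39 in Namalwa, 8.29 in SU-DHL-4, and 7.64 and 5.53 in Reh. The Reh contrast was -2.05 ± 0.40 (SE), with an adjusted p of 0.00414 in limma, and was -3.11 without Reh replicate 1 and -0.996 without Reh replicate 2. SLC2A9, the urate and hexose carrier GLUT9, was highest in HDLM2, at 10.27 and 8.86. It read 7.19 in L540, 7.89 in L540Cy and 6.19 to 6.73 in the other Hodgkin arrays, against 6.201 to 6.55 in the non-Hodgkin arrays. HDLM2 exceeded the other lines by 2.95 ± 0.27 (SE), with an adjusted p of 2.99e-05 in limma.

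SLC2A13 was highest in KM-H2, at 10.42 and 10.10, and then in L428, at 8.83 and 8.84. The KM-H2 contrast was 4.21 ± 0.19 (SE) and that of L428 was 2.58 ± 0.19, while that of Reh was -3.23 ± 0.19, with adjusted p of 2.49e-07, 8.87e-06 and 1.91e-06 in limma. Over the mean of 5 probe sets they were 2.11, 1.24 and -1.29.

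**Figure D4:**
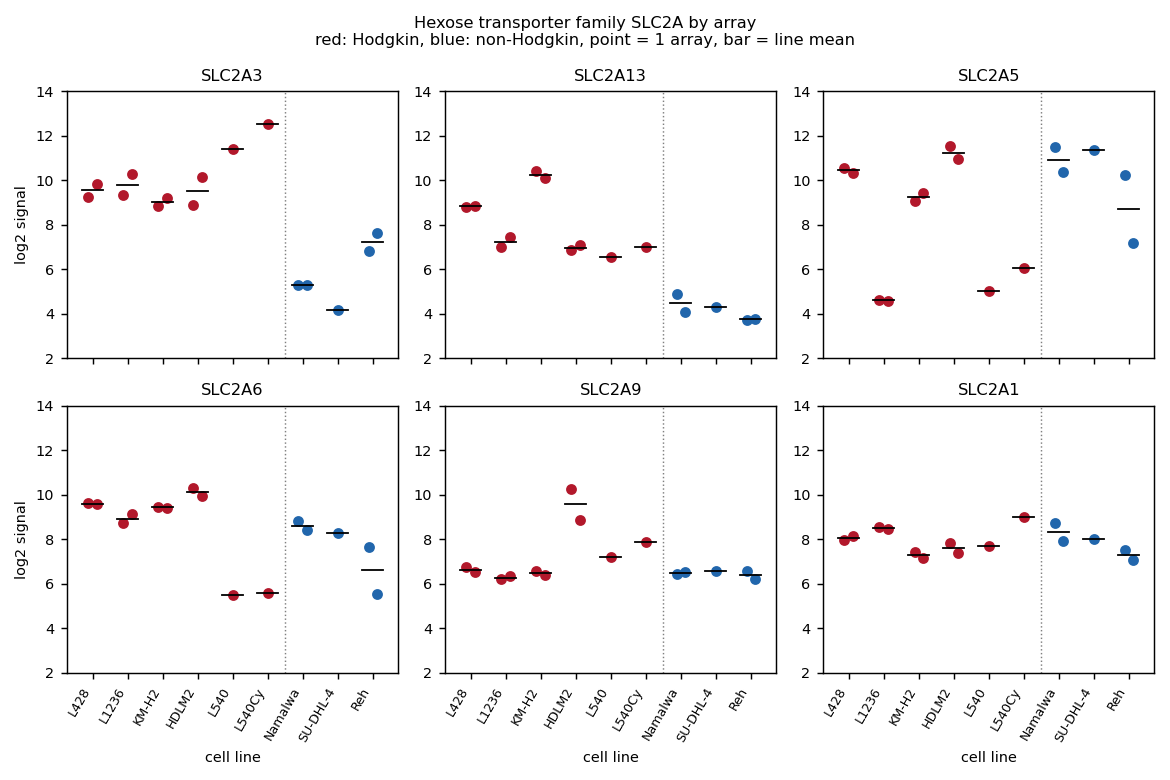
Log2 signal on each array (points) and line mean (bars) of 6 SLC2A genes in Hodgkin lines (red, left) and non-Hodgkin lines (blue, right). All SLC2A3 and SLC2A13 points of the Hodgkin lines are above those of the non-Hodgkin lines, whereas SLC2A5 spans 4.60 to 11.53 within the Hodgkin lines.

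Among amino acid carriers, SLC1A1 had the widest range. It encodes EAAT3, which takes up glutamate and cysteine. It read 3.60 and 3.39 in L428, 3.78 and 4.29 in L1236, 7.69 and 7.33 in KM-H2, 11.40 and 12.40 in HDLM2, 6.202 in L540 and 7.11 in L540Cy. The non-Hodgkin values outside Reh were 8.20 and 7.02 in Namalwa and 10.83 in SU-DHL-4. HDLM2 and SU-DHL-4, lines of different classes, were highest. HDLM2 exceeded the other lines by 5.29 ± 1.02 (SE), with an adjusted p of 0.00320 in limma. The L428 and L1236 contrasts were -4.32 and -3.70, the first of them -2.82 over the mean of both probe sets, and each was lost without either array of its own line, as the HDLM2 call was without HDLM2 replicate 2. Without Reh replicate 1 the HDLM2 contrast was 5.69, that of SU-DHL-4 was 4.47 and that of Reh was -4.08, all called, at adjusted p of 1.61e-06, 7.78e-05 and 0.000134 in limma.

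SLC1A4, the neutral amino acid carrier ASCT1, read 11.05 and 10.98 in L428, 9.71 and 9.31 in L1236, 9.63 and 9.47 in KM-H2, 8.56 and 8.06 in HDLM2, 4.68 in L540 and 7.13 in L540Cy. It read 8.93 and 8.22 in Namalwa, 9.84 in SU-DHL-4, and 9.19 and 8.47 in Reh. L540 and L540Cy were lower than every other line and differed from each other by 2.46, the largest gap between them of any transporter. Their joint contrast was -3.47 ± 0.23 (SE), with an adjusted p of 3.21e-06 in limma, and -2.02 over the mean of 5 probe sets. SLC1A3, the glutamate carrier EAAT1, was higher in KM-H2, at 7.71 and 7.92, and in Namalwa, at 7.97 and 7.85, than on every other array.

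SLC38A1, the glutamine carrier SNAT1, was lowest in L1236. It read 9.32 and 9.20 in L1236 and 11.97 to 12.42 in the other Hodgkin arrays, against 11.85 to 12.44 in the non-Hodgkin arrays. Another of its probe sets averaged 8.32 in L1236, and 11.08 in SU-DHL-4 and 10.67 in Reh. SLC38A2 did not share this drop, with 12.23 and 12.06 in L1236. SLC38A5, the glutamine and glycine carrier SNAT5, read 5.57 and 4.28 in L428 and 7.30 to 9.01 in the other Hodgkin arrays. It read 4.59 in SU-DHL-4, against 8.64 to 9.88 in Namalwa and Reh. L428 and SU-DHL-4 were thus low in different classes. The SU-DHL-4 contrast was -3.44 ± 0.48 (SE), with an adjusted p of 0.000891 in limma. SLC38A6 was lowest in Namalwa, at 4.99 and 3.98, with a contrast of -2.68 ± 0.23 and an adjusted p of 2.62e-05 in limma. It was highest in L540, at 8.72 on 1 array, close to 8.43 and 8.71 in L428, and read 7.65 in L540Cy. By line of origin L428 was the highest, exceeding the mean of the other lines by 1.99. SLC38A9, an arginine sensor of the lysosome, was also lowest in Namalwa, at 6.90 and 5.62, and highest in L540, at 9.22.

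SLC7A2, another cationic amino acid carrier, had its high signal in KM-H2, at 8.24 and 8.29. Every other array lay between 4.50 and 5.17. This rested on 1 of its 3 probe sets: the others averaged 4.53 and 4.62 in KM-H2, and the KM-H2 contrast was 3.44 by the brightest probe set and 1.22 over the mean of all 3. SLC7A6, the light chain y+LAT2 that shares its substrates with SLC7A7, read 10.53 and 10.11 in KM-H2 and 7.42 to 8.59 in the other Hodgkin arrays, against 9.29 to 10.38 in the non-Hodgkin arrays. Its difference of -1.17 ± 0.57 (SE) had an adjusted p of 0.414 in limma. KM-H2 thus read with the non-Hodgkin lines for SLC7A6, and not for SLC7A7, at 6.07 and 5.59. SLC7A3 exceeded the other lines by 2.497 ± 0.25 (SE) in Namalwa and by 1.95 ± 0.25 in Reh, with adjusted p of 5.91e-05 and 0.000324 in limma. The Reh contrast was 2.49 without Reh replicate 1. SLC7A7 in SU-DHL-4 exceeded the other lines by 2.39 ± 0.59, with an adjusted p of 0.0187 in limma.

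**Figure D5:**
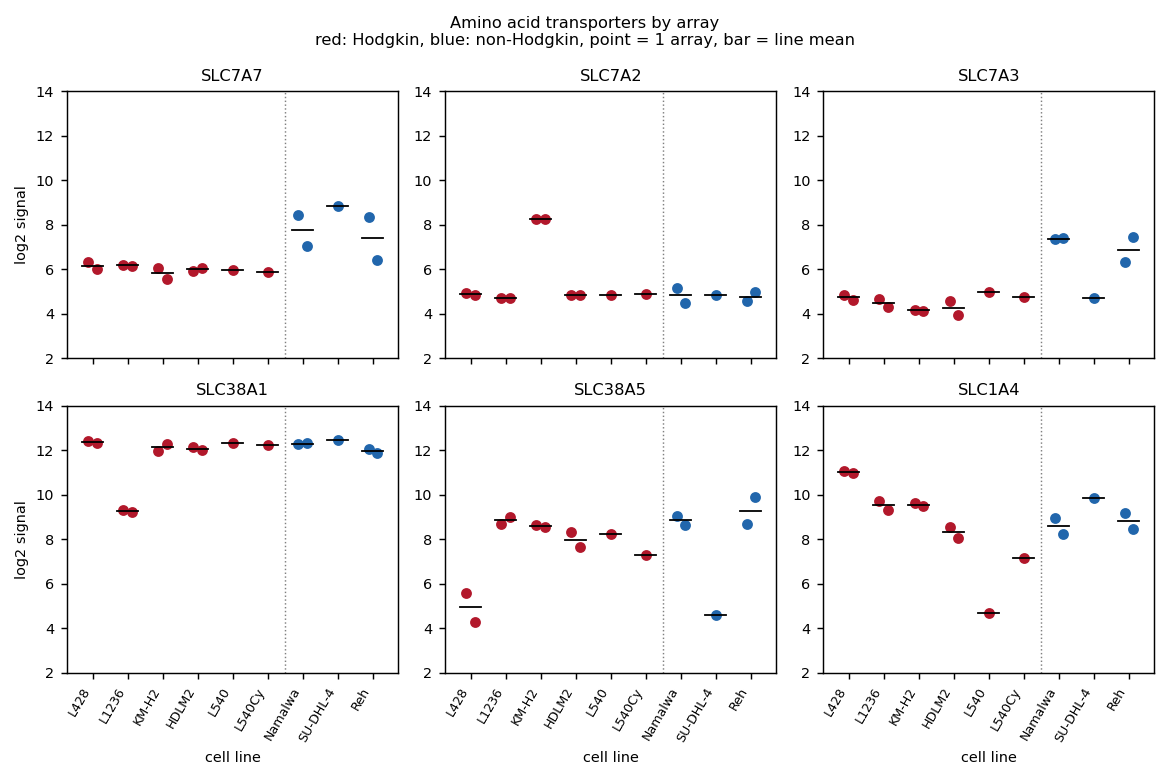
Log2 signal on each array (points) and line mean (bars) of 6 amino acid transporter genes in Hodgkin lines (red, left) and non-Hodgkin lines (blue, right). SLC7A7 is at most 6.33 on every Hodgkin array, SLC7A2, by its brightest probe set, is high in KM-H2 alone, and SLC38A1 is low in L1236 alone.

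The partner chains that bring these carriers to the membrane were not called between classes. Of 5 measured, 0 passed the test in limma and 1, NPTN, was higher at an unadjusted p under 0.05. SLC3A2, the heavy chain of SLC7A5, SLC7A6, SLC7A7 and SLC7A11, differed by 0.14 ± 0.32 (SE). It was highest in L540Cy, at 10.88, and lowest in L1236, at 9.44, while its light chain SLC7A5 was highest in L428, at 12.09, and lowest in KM-H2, at 10.54. SLC3A1 differed by 0.50 ± 0.48. BSG, the chaperone of several SLC16A carriers, differed by 0.17 ± 0.25 and was not called in the F test. EMB, the partner of SLC16A7, differed by -1.24 ± 0.75 and was highest in L428, where SLC16A7 was low. NPTN, a relative of BSG, differed by 0.94 ± 0.34, with an adjusted p of 0.275 in limma. The F test called 4 of the 5 partner chains, against 52.0% of all genes.

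Genes that use or sense the carried nutrients were likewise not called between classes. In 5 lists of these, 0 members passed the test in limma, and each list had 0 or 1 member lower and 1 higher at an unadjusted p under 0.05. The 18 genes of the amino acid response had a median difference of 0.18, and the F test called 15 (83.3%), against 52.0% of all genes. PHGDH, the first enzyme of serine synthesis, was 11.20 in L428 and 6.42 to 6.98 in the other Hodgkin lines, against 11.25 in Namalwa, 6.55 in SU-DHL-4 and 11.61 in Reh. CTH, which makes cysteine, differed by 1.46 ± 0.38 (SE), with an adjusted p of 0.139 in limma. Of 9 genes of glutamine and glutamate use, 6 were measured, with a median of -0.14, and the F test called all 6, against 52.0% of all genes. GLUL, glutamine synthetase, ran from 3.87 in L1236 to 11.55 in HDLM2 within the Hodgkin lines, and was 10.01 in L540 against 4.05 in its subline L540Cy. GCLM, which acts in glutathione synthesis, differed by 0.80 ± 0.22.

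The 10 genes of branched chain, arginine and tryptophan use had a median difference of -0.18, and the F test called 7 (70%), against 52.0% of all genes. ARG2, an arginase, differed by 2.79 ± 1.08 (SE), with an adjusted p of 0.303 in limma. ASS1, which rebuilds arginine from citrulline, was 11.37 in L428 and 4.92 to 5.48 in the other Hodgkin lines, against 7.39 in Namalwa, 5.10 in SU-DHL-4 and 10.65 in Reh. The 15 genes of glucose and lactate use had a median of -0.13, and the F test called 13 (86.7%), against the same 52.0%. ARRDC4, an arrestin that lowers glucose uptake, differed by -2.27 ± 1.03, and PFKM, the muscle type phosphofructokinase, by -1.90 ± 0.94. The 18 measured genes of amino acid sensing at the lysosome had a median of 0.08, and the F test called 14 (77.8%), against the same 52.0%. RRAGD and RRAGA, GTPases of that machinery, differed by -1.16 ± 1.48 and 0.77 ± 0.40.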

How the data were processed

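The deposited values are log2 signals of 54675 probe sets on 15 arrays; the authors made them with RMA, per the submitters' processing notes, and the software and its version are not stated there or elsewhere in the sources used. RMA adjusts background, quantile-normalizes probes and summarises them. Arrays therefore share a distribution of probe values, and a change common to most genes is not visible. The summarised values need not share it: the upper quartile was 7.30 on Namalwa replicate 2 and 7.53 to 7.71 on the other arrays. The array data give no read depth, and the number of arrays limits the precision. The platform annotation gave 1 symbol to 41091 probe sets, several to 1801 and none to 11721 (62 were controls); 41037 matched RefSeq by gene ID.

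A gene was its probe set with the highest mean, giving 19735 genes. limma 3.58.1 in R 4.3.3 (lmFit, eBayes) compared means of 5 Hodgkin and 3 non-Hodgkin lines of origin. A second fit gave all 15 arrays 1 mean per line, with 6 residual degrees of freedom, for the F test and for each line against the other 7. Every test was two-sided, and p-values were adjusted by the Benjamini-Hochberg method across every gene of a comparison, with a threshold of 0.05. The p-values over arrays measure only the spread between duplicates of a line. The fits were tested on simulated data in which the spread between lines was capped and L540Cy had the same true level as L540. That spread was smaller than for widely varying transporters such as SLC1A1, with an SD of 3.36 over Hodgkin lines. The simulation therefore cannot speak for such genes. Alternatives were other probe set summaries, renormalization, a signal minimum of 6, random and replicate blocks, and left-out arrays and lines.

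Members and gene lists were chosen with earlier results of these data known. Genes named were those called between classes, the 3 largest differences and 3 largest ranges of each family, the 2 largest called rises and falls of each line, well-known carriers, their partners, and the called members or 2 largest differences of each list. MS4A1 and the other single marker genes were singled out after their values were seen.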

Additional observations from a re-analysis of the deposited data

Results flagged for a closer look

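In 7 of the 29 named transporters, 1 of the 5 Hodgkin lines of origin stood apart by Dixon's test, its gap to the nearest line divided by the range of the 5. The 29 were named in part for wide ranges and large single-line differences, so their count is a description and not a test. The same gap was passed by 9 of all 50 transporters (18%) and by 10.4% of all genes, and chance marks about 1 in 20 groups when values are normally distributed. SLC16A14 was highest in L540, with a ratio of 0.950, at a mean of 7.12 and a nearest line of 3.82. SLC7A2 was highest in KM-H2, with a ratio of 0.949, at 8.27 and a nearest line of 4.90, by its brightest probe set; its other probe sets averaged 4.53 and 4.62 in KM-H2. SLC16A4 was highest in L1236, with a ratio of 0.916, at 10.73 and a nearest line of 4.34. SLC38A1 was lowest in L1236, with a ratio of 0.901, at 9.26 and a nearest line of 12.06. SLC2A3 was highest in L540, with a ratio of 0.738, at 11.98 and a nearest line of 9.81. SLC2A6 was lowest in L540, also with a ratio of 0.738, at 5.54 and a nearest line of 8.92. SLC38A5 was lowest in L428, with a ratio of 0.724, at 4.92 and a nearest line of 7.76, and its 2 L428 arrays read 5.57 and 4.28.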

How the results depend on the processing

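The only class difference that was called, in SLC7A7, kept its sign. Among the named differences not called, those of SLC1A2, SLC1A3, SLC1A4, SLC2A1, SLC2A9, SLC7A11, SLC16A4, SLC38A1 and SLC38A5 changed sign over the alternatives. The difference of SLC16A4 ran from -0.41 to 1.89 and that of SLC38A5 from -1.47 to 0.91. The count of transporters higher in Hodgkin lines, 0, became 1 with L540 and L540Cy as 2 lines, 2 with the line as a random block, 2 over the 12 arrays with numbered duplicates with the replicate block and 2 above a mean of 6 log2, and was 0 to 1 when a line or array was left out. The count lower, 1, became 2 with the random block, 2 with the replicate block and 0 without the T cell derived lines, and was 0 to 2 when a line or array was left out; it was 0 without Reh replicate 1. The random and replicate blocks, which treat arrays of a line as partly independent, call SLC2A3, SLC2A13 and SLC7A3. SLC2A3 had adjusted p of 0.00220 and 0.00449 under them in limma. The replicate block setting also leaves out L540, L540Cy and SU-DHL-4. In it SLC7A7, at -1.53, is lost and SLC16A14, at -3.87, is called. Of the lines left out, SU-DHL-4 was the highest of all lines for SLC7A7, at 8.85. SLC16A14 read 6.76 in L540 and 7.47 in L540Cy. The main fits did not take the replicate numbers as pairs. The 15 correlations of same-numbered deviations ran from -0.07 to 0.36, with a median of 0.20 and 10 over 0.1. A part shared by arrays of the same number was therefore not modelled in the main fits. The F test called 31 transporters and 26 to 32 under all alternatives, and single-line contrasts called 33 and 31 to 36. Few lines and 1 array for L540, L540Cy and SU-DHL-4 limit the precision; 11 transporters below 6 on all arrays may lie near background, for which the values give no detection call. The cause of these shifts was not tested.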

Other observations

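A pair of probe sets assigned to both SLC2A3 and SLC2A14 were not members of any comparison. Their line means were highest in L540Cy, at 11.13 and 11.58, and lowest in SU-DHL-4, at 5.80 and 4.50, the same lines as for the probe set that represents SLC2A3. The antisense transcript SLC16A1-AS1 had its highest line mean in L428 by all 3 of its probe sets, at 6.12, 7.12 and 6.96, and the lowest in KM-H2 or L540Cy. SLC38A2-AS1 had its highest line mean in Namalwa, at 7.40 by 1 probe set and 4.33 by the other. The first probe set averaged 6.45 to 6.98 in the other lines. Its highest single array read 7.98, so the Namalwa mean may rest on 1 array. SLC38A2 had its lowest line mean in Namalwa, 10.995, and a link between these signals was not tested. L540Cy and L540, a subline and its parent, differed by more than 1 log2 unit for 6 of the 50 transporters. SLC1A4 read 7.13 in L540Cy and 4.68 in L540, SLC2A1 read 9.01 and 7.70, and SLC2A3 read 12.54 and 11.43; with 1 array each there is no test.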
